A study of Mus musculus with 3 samples.

Results

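The heart is the first organ to work in the mouse embryo, and it beats through the sarcomere, the repeating contractile unit of its muscle cells. Thick filaments of myosin pull on thin filaments of actin, which the troponin complex opens when calcium binds. Titin holds the thick filaments in place, alpha-actinin anchors the thin ones at the Z-disc, and the ryanodine receptor releases the calcium from its store. The set described here is 10 genes of this machinery: Myh6, Myh7, Myl7 and Myl2 of the thick filament, the titin gene Ttn as its own spring element, then Actc1, Tnnt2 and Tnni1 of the thin filament, Actn2 of the Z-disc and Ryr2 of the calcium store. Members were found by symbol through the RefSeq accession of each probe or, for 1 Actn2 probe, through the gene name in the authors' deposited table. This gave 10 genes of 36982 genes and other transcripts on the array, and 15 of 55681 probes.

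The study set mouse embryos of stage E8.75 against each other on 3 two-colour Agilent arrays, each an embryo pair. By the labels, wild-type RNA carried Cy3 and Brpf1-deficient RNA Cy5 on each array, with no treatment. Brpf1 encodes a scaffold that joins MYST-family histone acetyltransferases to chromatin. The labels do not say which allele or part of Brpf1 was disrupted, in which cells, or whether an RNA came from 1 embryo or several. The dyes were never swapped, so dye and genotype cannot be told apart.

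Each value is the log2 of Cy5 over Cy3, and a negative one means less signal in the channel labelled Brpf1-deficient. This runs opposite to the authors' deposited table, which does not state its direction. Brpf1 itself was brighter in Cy5, with log2 ratios of 2.01, 1.43 and 1.06 in pairs 1, 2 and 3, from 1 probe whose place in the gene was not analysed here. It therefore goes against the label, and every direction given here holds for the channel labelled Brpf1-deficient, not for a checked genotype. Between 27480 and 33324 probes were well above background per channel and array. The raw Cy5 channel was the brighter one, with a median spot intensity of 234 to 257 against 142.5 to 155.5 in Cy3. The loess step brings the ratios of most genes near 0, with a median of -0.02 over all genes tested. A raw Cy5 spot can therefore be brighter than its Cy3 partner while the normalized ratio is negative. Of the 544 genes above a log2 intensity of 17, 280 still passed the limma threshold as higher in Cy5 and 0 as lower. Whether a dye difference remained there was not tested.

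The 10 genes were chosen with results of these arrays known, among them the calls of Myh6, Ryr2 and Ttn in this same contrast. Their ratios are therefore given as a description, without p-values. Levels of different genes are not compared, since each probe has its own brightness. Bulk embryo RNA cannot separate fewer heart muscle cells from less of a transcript per cell.

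The tissue label was checked with markers of cell types. Of 16 cardiomyocyte markers, 4 of them in the set, 15 were measured, among them Nkx2-5, Nppa, Gata4 and Tbx5, while Bmp10 stayed near background throughout. Of 12 skeletal muscle markers 5 were measured. In both channels of all 3 arrays Myf5, Myog, Ckm and Chrna1 were not well above background. Myod1, Myf6 and Chrng were above it on 1 array in Cy3 and on none in Cy5. Of 8 smooth muscle markers 6 were measured, without Myh11 and Lmod1.

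Before the values, the promoters of the 5 genes whose ratio lay below 0 in every pair are shown. These genes kept 1 direction over the pairs under the main setting. Each is the 250 bases before the first start listed for the gene in RefSeq (GRCm38.p6), 5′ to 3′ on the gene's own strand. Capitals mark matches, on either strand, to the MEF2 motif, the CArG box of serum response factor, the MCAT motif of TEAD factors (CATTCC) or a GATA motif (AGATAA).
Myh6, chr14:54966608-54966857, minus strand: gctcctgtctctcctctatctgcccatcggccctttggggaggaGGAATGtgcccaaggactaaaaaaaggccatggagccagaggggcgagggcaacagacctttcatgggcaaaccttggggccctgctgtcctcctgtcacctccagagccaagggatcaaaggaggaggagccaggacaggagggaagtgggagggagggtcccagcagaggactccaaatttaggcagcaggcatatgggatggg
Myl7, chr11:5898783-5899032, minus strand: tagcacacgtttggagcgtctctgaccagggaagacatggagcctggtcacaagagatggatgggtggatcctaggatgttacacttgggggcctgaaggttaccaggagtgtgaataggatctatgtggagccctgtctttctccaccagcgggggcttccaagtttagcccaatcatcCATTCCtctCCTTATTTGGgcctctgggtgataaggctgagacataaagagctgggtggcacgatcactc
Ttn, chr2:76982548-76982797, minus strand: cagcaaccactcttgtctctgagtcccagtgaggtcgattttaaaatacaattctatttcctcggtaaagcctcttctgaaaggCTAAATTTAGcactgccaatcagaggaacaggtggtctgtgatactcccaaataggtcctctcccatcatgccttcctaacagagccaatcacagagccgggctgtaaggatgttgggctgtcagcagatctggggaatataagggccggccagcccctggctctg
Tnnt2, chr1:135836084-135836333, plus strand: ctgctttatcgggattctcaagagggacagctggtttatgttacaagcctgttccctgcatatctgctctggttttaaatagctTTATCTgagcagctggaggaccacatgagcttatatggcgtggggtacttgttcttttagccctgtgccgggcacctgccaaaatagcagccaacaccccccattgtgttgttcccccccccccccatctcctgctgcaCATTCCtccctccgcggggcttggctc
Ryr2, chr13:12106946-12107195, minus strand: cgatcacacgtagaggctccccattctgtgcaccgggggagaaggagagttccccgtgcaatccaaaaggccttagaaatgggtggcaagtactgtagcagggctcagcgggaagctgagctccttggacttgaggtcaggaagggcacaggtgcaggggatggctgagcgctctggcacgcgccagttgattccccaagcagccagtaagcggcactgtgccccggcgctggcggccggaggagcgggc

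Among these windows, Myh6, Myl7 and Tnnt2 hold the MCAT letters, Myl7 the CArG box, Ttn the MEF2 motif and Tnnt2 the GATA letters, and none of the 4 motifs is in the Ryr2 window. No 2 matches overlap. Over the promoters of all 10 genes the MCAT letters are in 4, the CArG box in 2, the GATA letters in 2 and the MEF2 motif in 1. Among all 32851 RefSeq promoter windows of the same length, 12.6% hold the MCAT letters, 1.47% the CArG box, 9.99% the GATA letters and 0.508% the MEF2 motif. A match describes letters, not binding.

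Of the 10 genes, 3 passed the threshold in limma as lower in Cy5 (adjusted p below 0.05), Myh6, Ttn and Ryr2, against 0.0934% of the 23554 genes tested, and none was higher, against 1.29%. In either direction 1.38% of the genes tested passed. The ratio was below 0 in all 3 pairs for 5 of the 10, Myh6, Ttn, Ryr2, Tnnt2 and Myl7, against 23.8% of all genes. No gene was above 0 in all 3 pairs, and the other 5 changed sign between pairs. The median ratio of the 10 genes was -0.32, with -0.48, -0.45 and -0.01 in pairs 1, 2 and 3, and the median of all genes tested was -0.02. Without pair 1 the median of the 10 was -0.18. Because the genes were chosen on this contrast, nothing is read from these counts.

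**Figure D1:**
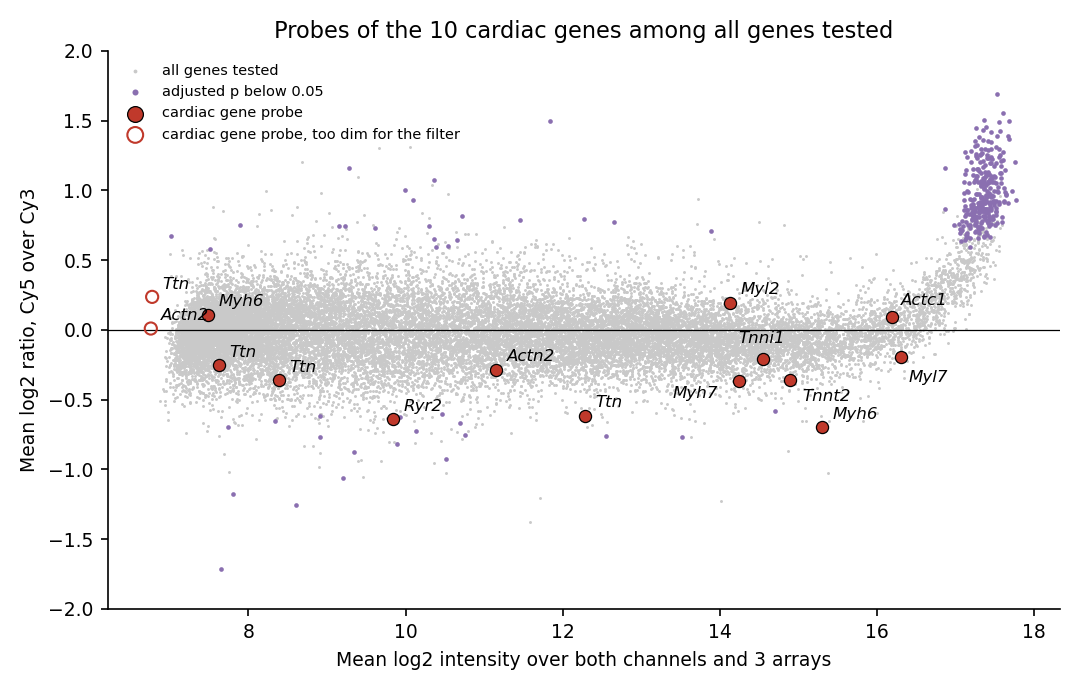
Mean log2 ratio of Cy5 over Cy3 (vertical) against mean log2 intensity (horizontal), with all 23554 genes tested in grey, those past the threshold in purple, and the 15 probes of the cardiac genes in red, open where too dim for the filter. Myh6, Ttn and Ryr2 lie at -0.70, -0.62 and -0.64 at log2 intensities of 15.3, 12.3 and 9.85, while 280 of the 304 higher calls sit above a log2 intensity of 17, where no cardiac gene lies.

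The 3 calls rest on the setting. None of Myh6, Ttn and Ryr2 passed after omission of any 1 pair, with a loess span of 0.02, with the scanner software's processed signals, with an intensity trend in the variance, with all probes of a gene averaged, or with the 544 genes above a log2 intensity of 17 left out. None of them passes in the authors' deposited table either. Their ratios stayed below 0 in all of these. Myh6 passed in 4 of 14 alternatives and Ttn and Ryr2 in 3 each, and over all 14 alternatives they ranged from -0.73 to -0.30 for Myh6, from -0.73 to -0.41 for Ttn and from -0.78 to -0.59 for Ryr2.

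Myh6 encodes the alpha myosin heavy chain, the fast cardiac motor of the thick filament. Its normalized log2 intensity in pairs 1, 2 and 3 was 15.50, 16.03 and 15.43 in the channel labelled wild-type (Cy3). In the other (Cy5) it was 14.79, 15.38 and 14.69. All 3 Cy5 values lay below all 3 Cy3 values. This held for 1 of the 10 genes, against 11.1% of all genes tested. The log2 ratios were -0.72, -0.65 and -0.73 and averaged -0.70 ± 0.08 (limma's moderated SE, which draws on the spread of all genes, as for each SE below) with an SD over pairs of 0.046. The mean is 1.62-fold less signal in Cy5. On the raw scale the spots read 32987, 54240 and 29970.5 for Cy3 and 44939.5, 52253.5 and 34832 for Cy5.

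A second Myh6 probe, named by the same accession, was near background, with raw spots of 106.5, 136.5 and 164 in Cy3. It was well above background on 2 arrays in Cy3 and on 1 in Cy5, and its ratios were -0.12, 0.91 and -0.46 with a mean of 0.11. The mean of both probes was -0.30, and Myh6 did not pass on that basis, nor with median centring, where its ratio was -0.46. The 2 probes thus disagree in sign in pair 2 and in the mean, while the dim one was below 0 in the other pairs. The bright one carries the value given above.

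Myh7, the beta myosin heavy chain and slow cardiac motor, lies beside Myh6 in the genome and is similar in sequence. The probe sequences are not in the files used here, so cross-hybridization between them was not tested. Its log2 intensity was 14.36, 14.96 and 13.96 in the channel labelled wild-type (Cy3) and 13.64, 14.51 and 14.02 in the other (Cy5). Cy5 was the dimmer channel in pairs 1 and 2 and slightly the brighter in pair 3, and the ranges overlap. The ratios were -0.72, -0.45 and 0.06, with a mean of -0.37 ± 0.16 (SE) and an SD of 0.40 that exceeds the size of the mean. The mean was -0.19 without pair 1 and -0.59 without pair 3. The Myh6 ratio minus the Myh7 ratio was 0.00, -0.20 and -0.80 in pairs 1, 2 and 3, so the heavy chains had equal ratios in pair 1 and unequal ones in pair 3.

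Myl7 and Myl2 are the regulatory light chains typical of atrial and ventricular muscle. Myl7 is found throughout the early heart tube, while Myl2 marks the future ventricle. The Myl7 log2 intensity was 16.34, 16.69 and 16.16 in the channel labelled wild-type (Cy3) and 15.97, 16.48 and 16.15 in the other (Cy5). Its ratios were -0.36, -0.21 and -0.01. Its mean of -0.20 ± 0.10 (SE) turned to 0.20 with median centring in place of loess and was -0.49 with processed signals, so its direction depends on the scaling. Without pair 1 it was -0.11. Its Cy5 value was below its Cy3 partner in each pair under loess, by very little in pair 3.

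Myl2 varied most of the 10 between pairs. Its log2 intensity was 13.62, 14.72 and 13.77 in the channel labelled wild-type (Cy3) and 13.15, 14.79 and 14.75 in the other (Cy5). Cy5 was thus the dimmer channel in pair 1 and clearly the brighter in pair 3. The ratios were -0.47, 0.07 and 0.98, with a mean of 0.19 ± 0.27 (SE) and an SD of 0.73. Without pair 3 the mean was -0.20 and without pair 1 it was 0.52. The difference between the Myl2 and Myl7 ratios was -0.10, 0.28 and 0.99 in pairs 1, 2 and 3, so the pair in which Myh6 lay furthest below Myh7 was also the pair in which Myl2 lay furthest above Myl7.

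**Figure D2:**
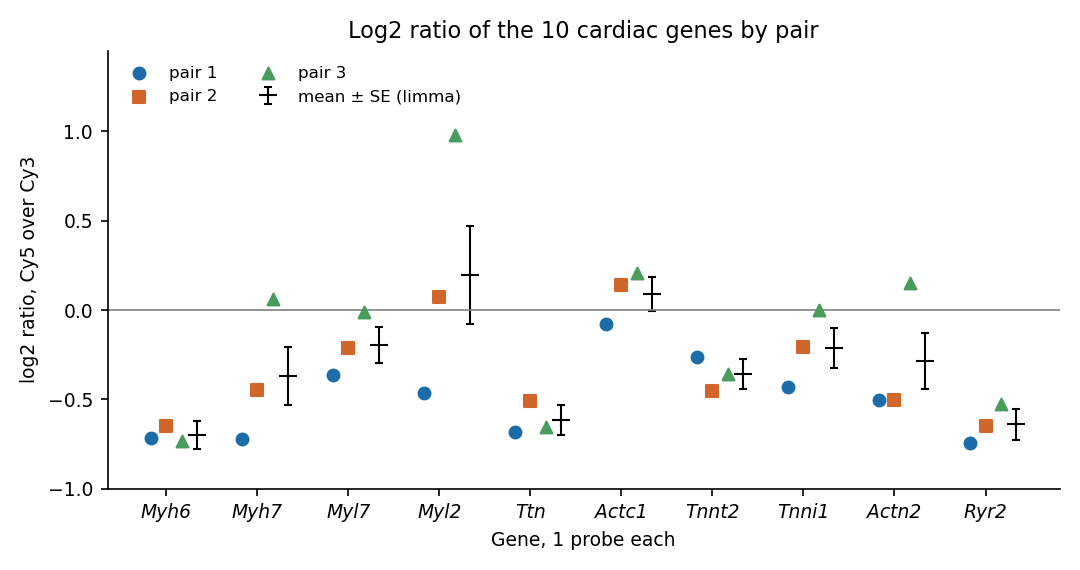
Log2 ratio of Cy5 over Cy3 (vertical) for each of the 10 genes (horizontal), with pairs 1, 2 and 3 as circles, squares and triangles and the mean with its limma SE in black. Myh6, Ttn, Tnnt2 and Ryr2 lie below -0.2 in all pairs, while Myl2 spans -0.47 to 0.98.

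Titin, encoded by Ttn, is the giant spring that spans from Z-disc to M-band. The log2 intensity of its brightest probe was 12.47, 13.00 and 12.32 in the channel labelled wild-type (Cy3). In the other (Cy5) it was 11.79, 12.49 and 11.67. Cy5 was the dimmer channel in every pair, while the Cy5 value of pair 2 lay above the Cy3 values of pairs 1 and 3. The ratios were -0.68, -0.51 and -0.65, with a mean of -0.62 ± 0.08 (SE), or 1.53-fold less signal in Cy5. Of the 3 other Ttn probes, with raw Cy3 spots of at most 339.5, 1 gave -0.63, 0.29 and -0.74 and another, of a second titin transcript, -0.17, -0.25 and -0.33. The latter was well above background on all arrays in Cy3 and on none in Cy5, so its 1.19-fold difference rests on a Cy5 signal near background. The last was not well above background in either channel and gave 0.15, 0.49 and 0.06. Over the 3 probes that passed the filter the mean was -0.41.

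Ryr2 encodes the cardiac ryanodine receptor, through which the sarcoplasmic reticulum releases calcium. Its log2 intensity was 10.15, 10.73 and 9.64 in the channel labelled wild-type (Cy3) and 9.40, 10.08 and 9.11 in the other (Cy5). The Cy5 value was lower within every pair, although the channels overlap across pairs, because the Cy3 values alone spanned 1.09. The ratios were -0.74, -0.65 and -0.52 and averaged -0.64 ± 0.09 (SE), or 1.56-fold less signal in Cy5. Its raw Cy3 spots read 936.5, 1590 and 592.

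Among the thin filament genes, Tnnt2 encodes cardiac troponin T, which ties the troponin complex to tropomyosin. Its log2 intensity was 14.87, 15.39 and 14.94 in the channel labelled wild-type (Cy3) and 14.61, 14.94 and 14.58 in the other (Cy5). It was lower in Cy5 in every pair. The ratios were -0.26, -0.45 and -0.36, with a mean of -0.36 ± 0.08 (SE), which did not pass the threshold. With median centring the mean was -0.19.

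Tnni1 encodes the slow skeletal form of troponin I that the embryonic heart uses as its inhibitory subunit. Its log2 intensity was 14.58, 14.93 and 14.45 in the channel labelled wild-type (Cy3) and 14.15, 14.72 and 14.45 in the other (Cy5). Cy5 was dimmer in pairs 1 and 2 and equal to 2 decimals in pair 3. The ratios were -0.43, -0.20 and 0.00, with a mean of -0.21 ± 0.11 (SE). The mean was -0.10 without pair 1, -0.32 without pair 3, -0.14 with a loess span of 0.02 and -0.094 with median centring.

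Actc1 encodes cardiac alpha-actin, the main actin of the embryonic heart's thin filaments. Its log2 intensity was 16.04, 16.41 and 15.98 in the channel labelled wild-type (Cy3) and 15.96, 16.54 and 16.19 in the other (Cy5). The ratios were -0.08, 0.14 and 0.21. The channels overlap and differ little in each pair. The mean of 0.09 ± 0.09 (SE) became 0.47 with median centring and -0.11 with processed signals, so no direction can be given for it. It was 0.17 without pair 1 and 0.031 without pair 3. Its mean log2 intensity was 16.2, below the 17 above which 280 of the 304 higher calls lie.

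Actn2 encodes the sarcomeric alpha-actinin. Its log2 intensity was 11.16, 11.87 and 10.87 in the channel labelled wild-type (Cy3) and 10.66, 11.37 and 11.03 in the other (Cy5). Cy5 was dimmer in pairs 1 and 2 and brighter in pair 3. The ratios were -0.50, -0.51 and 0.15, with a mean of -0.29 ± 0.16 (SE) and an SD of 0.38. Without pairs 1, 2 and 3 in turn the mean was -0.18, -0.18 and -0.50, and with median centring -0.43. The Actn2 probe named by the deposited table failed the filter, being above background in neither channel, and its mean ratio was 0.01.

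The authors' deposited table lists 12 of the 15 probes. Turned to Cy5 over Cy3, the authors' deposited table gives -0.72 for Myh6, -0.69 for Ryr2, -0.62 for the brightest Ttn probe, -0.38 for Myh7, -0.37 for Tnnt2, -0.28 for Actn2 and -0.22 for both Myl7 and Tnni1. For these 8 probes the difference from the values above was under 0.05. The other 4 listed probes differed more, with -0.46, -0.39 and 0.98 in the authors' deposited table against -0.36, -0.25 and 0.24 here for Ttn, and -0.22 against 0.01 for Actn2. Myl2, Actc1 and the dim Myh6 probe are not among its rows.

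The levels of the 10 genes also differed between arrays. In Cy3 the highest of the 3 values belonged to pair 2 for all 10 genes, against 40.6% of all genes tested, and in Cy5 again for all 10, against 34.4%. Both held at once for 17.6% of all genes tested. In Cy3, the median of the 10 genes was 0.53 higher (log2) in pair 2 than in pair 1 and 0.64 higher than in pair 3, where the medians over all genes were 0.03 and 0.03. In Cy5 it was 0.64 and 0.36 higher, against -0.04 and -0.01 over all genes. The array is shared by both RNAs of a pair, so a property of the array and of both embryos cannot be told apart. For 9 of the 10 genes, all but Myh6, the range among the 3 Cy3 values was larger than the size of the mean ratio.

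**Figure D3:**
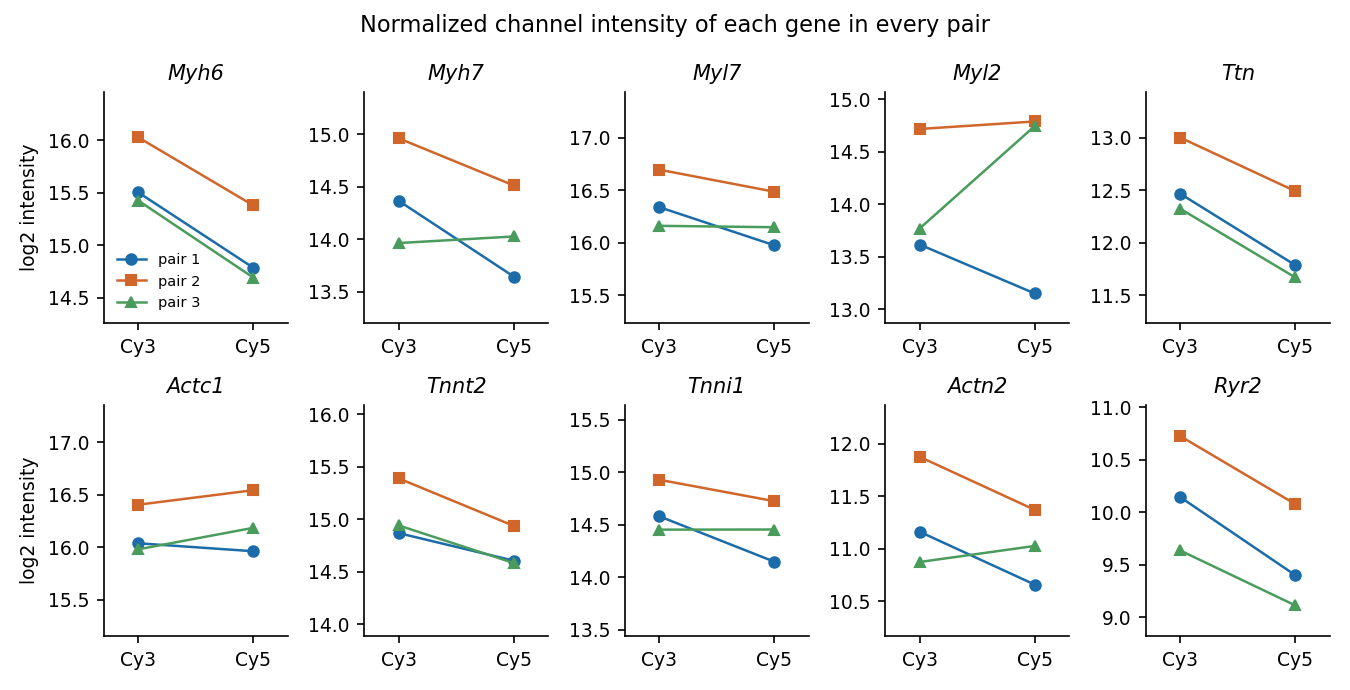
Normalized log2 intensity (vertical, the same span in each panel) of each gene in the Cy3 and Cy5 channel (horizontal), with a line for each pair. The pair 2 line starts and ends highest in all 10 panels, and in pair 3 the lines of Myh7, Myl2, Actc1 and Actn2 run upward while those of Myh6, Ttn, Tnnt2 and Ryr2 run downward.

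Pair 3 gave the highest ratio of the 3 pairs for 7 of the 10 genes, against 35.7% of all genes tested. The exceptions were Myh6, Ttn and Tnnt2. The 15 measured cardiomyocyte markers, 4 of them in the set, had median ratios of -0.26, -0.25 and 0.01 in pairs 1, 2 and 3. Their mean ratio was below 0 for 9, or 60%, against 54.4% of all genes tested. Outside the set, Nppa (0.97), Nppb (0.51), Mef2c (0.32), Gata4 (0.24) and Nkx2-5 (0.06) had means above 0. Those of Hand2, Myl4, Smpx, Tbx5, Tnnc1 and Tnni3 lay below 0. Markers of other tissues also differed by pair, though Hand2 is in both the decidual and the cardiomyocyte list. The median ratio of 9 endothelial and endocardial markers was -0.20, -0.10 and 0.26 in pairs 1, 2 and 3, that of 6 epicardial markers -0.30, -0.29 and 0.21, and that of 7 decidual markers -0.17, -0.58 and 0.43. For 8 measured primitive erythrocyte markers it was -0.49, 0.77 and 0.82. Of the 8, 1 was called higher, Hbb-bh1, against 1.29% of all genes tested. It lies at a log2 intensity of 17.6, above the 17 over which 280 of the 304 higher calls lie. The 5 measured skeletal muscle markers had medians of -0.22, -0.46 and -0.07, and the 6 smooth muscle markers -0.12, -0.13 and 0.11. The skeletal muscle median of pair 1 is the value of Myh3, which was well above background on no array in Cy5.

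All 10 visceral endoderm markers had a mean ratio above 0, where 54.4% of all genes tested had one below 0. None of the 10 passed the threshold, and their median was 0.14, 0.56 and 0.54. Afp and Rbp4 lie at log2 intensities of 17.04 and 17.02, above the 17 over which 280 of the 304 higher calls lie. The others lie below it, Ttr nearest at 16.77, then Apoa1 at 16.20 and Cubn at 16.16. The summed intensity of these markers was 767557, 448780 and 572164 for Cy3 and 855619, 697747 and 994871 for Cy5. That of the 8 erythrocyte markers was 1141860, 308886 and 479977 for Cy3 and 896625, 652902 and 1156560 for Cy5. The summed cardiomyocyte markers were 319690, 429639 and 298808 for Cy3 and 256815, 365387 and 291670 for Cy5. The skeletal muscle sum ranged from 10792 to 14296.9 in Cy3 and from 7502.09 to 12578.4 in Cy5, and the endothelial sum from 38939.3 to 47417.9 and from 43225.9 to 47489.3. In both channels, pair 2 thus had the highest cardiomyocyte sum and the lowest sums of visceral endoderm and erythrocyte markers. The cardiomyocyte sum includes Myh6, Myl7, Actc1 and Tnnt2 of the 10 genes, so it is not separate from their levels, also highest in pair 2. The part of tissue make-up in the ratios of the 10 genes was not tested.

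Beyond the 10 genes, 84 other genes of the sarcomere and of calcium handling were listed, and 76 were measured. Myom2, Lmod2, Xirp2, Myoz2, Myot, Sln and Cacna1c did not pass the filter, and no probe was matched to Ryr3. None of the 76 passed the threshold (limma, adjusted over all genes), and at an unadjusted p below 0.05 21 were lower and 4 higher, against 2148 lower (9.12%) and 1938 higher of the 23554 genes tested. The mean ratio was below 0 for 56 of the 76, or 73.7%, against 54.4% of all genes, and below 0 in all 3 pairs for 31, or 40.8%, against 23.8%. The median was -0.20, with -0.22, -0.28 and -0.02 in pairs 1, 2 and 3.

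Among 15 other thick filament and M-band genes the median ratio was -0.24, or -0.37 without pair 3, and 13 lay below 0. Myom1, the M-band crosslinker myomesin, had -0.52 ± 0.16 (SE, limma adjusted p = 0.229), with ratios of -0.66, -0.83 and -0.07 in pairs 1, 2 and 3. Mybpc2, fast skeletal myosin binding protein C (-0.36 ± 0.08), and Myh14, a nonmuscle myosin heavy chain (-0.42 ± 0.12), did not pass either. The atrial light chain Myl4 had a mean of -0.24, with 0.0099 in pair 3, where Myl7 had -0.013.

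The 16 other thin filament genes had a median of -0.23, or -0.15 without pair 1, and 13 lay below 0. Tpm3, a tropomyosin gene also used outside muscle, was the exception among the smallest p-values at 0.43 ± 0.09 (SE, limma adjusted p = 0.132), and it lies at a log2 intensity of 16.79, near the bright end. Nebulin, encoded by Neb, had -0.46 ± 0.11 (adjusted p = 0.166), the fast troponin C gene Tnnc2 -0.35 ± 0.09 (adjusted p = 0.177) and the tropomyosin gene Tpm2 -0.21 ± 0.08 (adjusted p = 0.285). Neb and Tnnc2 are dim, at log2 intensities of 7.54 and 8.26.

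Z-disc and assembly genes had a median of -0.19 over 20 measured, with 13 below 0. The median was -0.11 without pair 1 and -0.095 without pair 2. The lowest p-values belonged to Ldb3, the Z-disc protein cypher (-0.58 ± 0.11, SE, limma adjusted p = 0.111), Speg, a kinase of the muscle triad (-0.47 ± 0.09, adjusted p = 0.114), Unc45b, the chaperone that folds muscle myosin (-0.61 ± 0.12, adjusted p = 0.121), and Actn3, the fast-fibre alpha-actinin (-0.66 ± 0.15, adjusted p = 0.159). All 4 were below 0 in every pair, pair 3 included, with Unc45b at -0.57, -0.88 and -0.38. A dimmer Ldb3 probe gave 0.10, and 2 further Speg probes gave -0.31 and -0.08.

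Of 25 other calcium handling genes 17 lay below 0, with a median of -0.17. Cacna1h, a T-type calcium channel subunit, had -0.46 ± 0.09 (SE, limma adjusted p = 0.127). Atp2a2, the pump SERCA2 that returns calcium to the store which Ryr2 empties, had ratios of -0.34, -0.58 and -0.22 and a mean of -0.38 ± 0.10 (adjusted p = 0.193), but its second probe gave 0.32. Itpr1, an intracellular calcium channel gated by inositol trisphosphate, had -0.26 ± 0.09 (adjusted p = 0.252). S100a1, a calcium sensor of heart muscle, had 0.26 ± 0.09 (adjusted p = 0.259), and both of its probes lay above 0. The median of this list moved to -0.043 when all probes of a gene were averaged and to -0.32 with median centring.

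**Figure D4:**
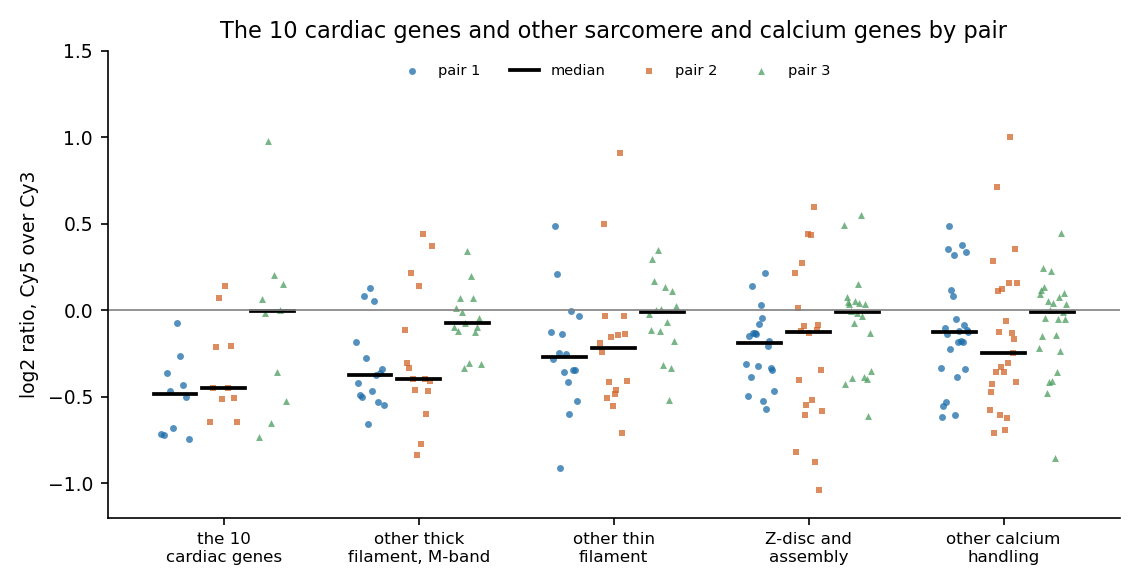
Log2 ratio of Cy5 over Cy3 (vertical) of every measured gene in 5 groups (horizontal), by pair, with the median of each group and pair as a black bar. The bars of pairs 1 and 2 lie between -0.48 and -0.13 and those of pair 3 between -0.07 and -0.01.

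By Euclidean distance over the 3 pairs, the named genes nearest to the median profile of the 10 (-0.48, -0.45 and -0.01) were Mrgprg at 0.03, Nat8f4 and Rab40b at 0.05, Hoxa13 at 0.06 and Dennd2c at 0.07. With 3 values per gene among at most 15377 genes with a matched RefSeq name, such closeness describes these arrays only.

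**Figure D5:**
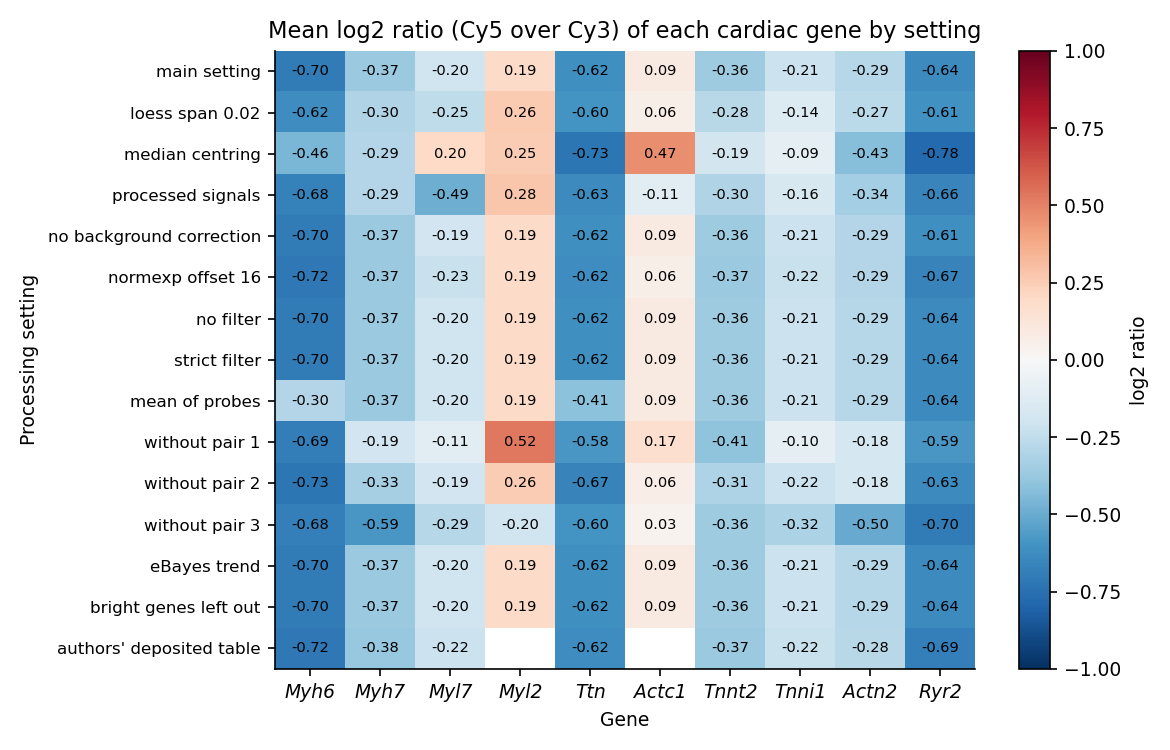
Mean log2 ratio of Cy5 over Cy3 of each of the 10 genes (columns) under the main setting and 14 alternatives (rows), coloured from blue (lower in Cy5) to red, with blank cells where the authors' deposited table lists no value. Myh6, Myh7, Ttn, Tnnt2, Tnni1, Actn2 and Ryr2 are below 0 in every row, while Myl7, Myl2 and Actc1 change sign in 1 row each.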

How the data were processed

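RNA of 3 embryo pairs was read on 3 two-colour arrays. Starting RNA was 350 ng per channel, amplified in 1 round before dye coupling, per the labels' protocols. The deposited intensity values are linear medians over a spot's pixels and over the pixels around it, read with Feature Extraction 10.7.3.1 per the file headers; the same files hold processed signals, background-subtracted and dye-normalized by that software. The authors' deposited table holds a log2 ratio and mean log2 intensity, a p-value (unadjusted and adjusted) and 2 scores (moderated t and log odds, unused here) for 40000 probes. Limma appears in the submitters' processing notes with no version; how the table was normalized is not given in the sources used. Its ratio correlates at -0.802 over 39908 probes with Cy5 over Cy3, so it was turned.

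Median signals were background-corrected with normexp (offset 50), then loess (span 0.3) normalized the log2 ratios, giving weight 0 to control spots and flags for outliers. Probes well above background in 1 channel on at least 2 arrays were kept (31598 of 55681, 13 of the 15 described), and the brightest probe stood for a gene. Names came from RefSeq accessions through the GRCm38.p6 table (27656 of 29123 matched). Ratios were tested against 0 with limma 3.58.1 in R 4.3.3 (lmFit, eBayes, two-sided, Benjamini-Hochberg over 23554 genes, threshold 0.05). The fit code was also run on simulated ratios with normal noise and no dye effect, which cannot show whether the calls here are sound. Channel levels were set with Aquantile. P-values set the mean ratio against the spread between 3 pairs, moderated by the spread of all genes. The number of pairs limits the precision. Motifs were searched on both strands.

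Members, lists, alternatives and naming rules were chosen with earlier results of these data known. The rule named every probe of the 10 genes, list members that passed, up to 4 per list by smallest unadjusted p, and the 5 genes nearest in pattern. One result that this rule names is not reported here. Genes named outside it (Myl4 and the marker genes) were chosen after their values were seen.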

Additional observations from a re-analysis of the deposited data

How the results depend on the processing

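The counts of genes past the threshold, 22 lower and 304 higher, depend on the setting, while the medians of the 10 genes and of the 4 lists stayed below 0 under all alternatives run. The counts were 0 and 0 in limma with a loess span of 0.02 (1898 lower and 1610 higher at an unadjusted p below 0.05), with processed signals (1966 and 1488), with an intensity trend in eBayes (2031 and 1911) and, an alternative added after seeing the data, with genes above a log2 intensity of 17 left out (2153 and 1420). The cause of these losses was not tested. Leaving out 1 pair gave counts from 0 to 0, with 995 to 1948 lower at an unadjusted p below 0.05; fewer arrays entered these fits. With normexp offset 16 the counts were 9 and 184, with the mean of all probes 5 and 196, and with median centring 25 and 626. The median of other calcium handling genes was -0.043 with the mean of all probes and -0.32 with median centring. Signal over background limits 4 of the 15 probes, 1 of Myh6, 2 of Ttn and 1 of Actn2, which were not well above background in both channels on every array. The fit is itself paired, since it tests the 3 within-array ratios against 0.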
